A study of Xenopus laevis with 9 samples.

Results

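In 30 homeolog pairs of Xenopus laevis, the copy that supplied most of the transcripts in blastula explants was not the copy that supplied most of them in neural plate border explants. In 10 of these pairs the L copy was dominant at stage 9 and the S copy at stage 11.5, and in 20 pairs the order was S first and L later. The pairs included etaa1, sema4a, rnf8, ppp3cc and gls among those that went from L to S, and ccng1, socs1, snx22, dhrs3, plekha4, lamb1 and tmem45b among those that went from S to L.

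Xenopus laevis is allotetraploid. It arose from a cross between related frog species, and its genome still holds chromosome sets from each of them, called the L (long) and S (short) subgenomes. Many genes are therefore present as homeologs, an L copy and an S copy that descend from the same ancestral gene, encode closely related proteins and carry their own regulatory sequences. At the blastula stage the embryo passes from maternal transcripts, made in the egg, to transcripts of its own genome, and a copy can supply either pool. The measure used below is the L share, which is the count of the L copy as a percentage of the counts of L and S together in 1 library.

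The members were chosen by their L share in the libraries compared. A gene symbol had to have exactly 1 L row and 1 S row, which 8773 symbols did. Its L and S counts together had to average at least 10 CPM (counts scaled to the library total) in the wild-type stage 9 libraries and in the neural plate border libraries, which left 4063 eligible pairs. The L share then had to be at least 67% in every library of 1 group and at most 33% in every library of the other. This held for 30 pairs, or 0.738% of those eligible, with 0.246% from L to S and 0.492% from S to L. Since the rule used the L share in these 6 libraries, every value that sets wild-type stage 9 libraries beside neural plate border libraries is a description, with no test.

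The samples were animal pole explants, pieces cut from the top of the blastula that normally give rise to ectoderm, and all came from embryos labelled wild type in genotype. The data comprised 3 groups with 3 RNA-seq libraries each. St9 wild-type explants (stage 9, a blastula stage) had no treatment. St9 soxb1 morphant explants carried soxb1 morpholinos, antisense oligonucleotides which block translation of Sox2 and Sox3, the SoxB1 transcription factors that act in pluripotent and neural cells. St11.5 NPB explants (stage 11.5, a gastrula stage) had been given Wnt8a and Chordin mRNA, a Wnt ligand and a BMP antagonist, and are labelled neural plate border (NPB), the band of ectoderm that forms neural crest and placodes. Each library pooled several explants, and the methods of the study describe 3 biological replicates. Nothing in the labels says which explants came from the same clutch of eggs, so the spread between libraries may be partly technical. Stage 9 and NPB libraries differed in stage, in the injected mRNA and in the table that held their counts, and these cannot be told apart.

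The libraries held between 25796466 and 48839143 counts. Replicates of a group differed well beyond sampling noise, so each was kept as 1 replicate (n = 3 in every group). The labels of the NPB group were checked by its markers: 22 rows of 12 NPB genes summed to between 1790 and 3166 CPM in NPB libraries and between 384 and 438 CPM in wild-type stage 9 libraries. The injected genes were at 2752 to 13875 CPM against 1.31 to 9.46 CPM. Transcripts of sox2 and sox3, whose translation rather than level is the target, stood at 577 to 957 CPM in wild-type and 1051 to 1455 CPM in morphant libraries. Markers of other cell types also moved between the stages: the epidermal list went from between 1967 and 2617 CPM to between 4287 and 4877 CPM, the mesoderm and endoderm list from between 149 and 262 CPM to between 364 and 570 CPM, and pluripotency genes from between 3650 and 4574 CPM to between 1709 and 3150 CPM. The neural crest list went from between 386 and 470 CPM to between 576 and 1187 CPM. A reference list, which includes actb, gapdh and rpl8, rose too, from between 4848 and 7139 CPM to between 13243 and 15634 CPM. The rises are therefore not read as a change of cell types. The mesoderm and endoderm list includes wnt8a, an injected gene, so its NPB sum may hold injected transcript and its rise is not read as a cell type. These sums are in unscaled CPM. The scaling factors used further below were 1.26 to 1.29 in wild-type and 0.718 to 0.835 in NPB libraries. With totals scaled by them the rises would be larger. The sums of the pluripotency genes would then overlap between the groups, so their fall depends on the scaling. The part of these markers in the swaps was not tested. In such bulk samples, fewer cells of a type and less RNA per cell cannot be told apart.

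Most pairs with a dominant copy kept it. Among the 4063 eligible pairs, 1710 had an L share beyond the limits in all 3 wild-type libraries (959 with L and 751 with S dominant) and 1960 in all 3 NPB libraries (1142 with L and 818 with S dominant). Of the 1298 pairs that were beyond the limits in both groups, 1268 had the same dominant copy, 742 of them L and 526 of them S. A further 207 L-dominant and 205 S-dominant pairs of the 1710 were not beyond the same limit in all 3 NPB libraries, so they had no dominant copy there by the rule. The 30 swapped pairs were 2.31% of these 1298. They were 1.04% of all pairs that were L-dominant in wild-type explants and 2.66% of all that were S-dominant. The median difference in mean L share between NPB and wild-type explants was 7.85 percentage points in size over all eligible pairs, and 90% of pairs differed by less than 25.2 points. In the swapped pairs it lay between 48.1 points (gls) and 81.0 points (socs1), with a median of 62.9 points. A difference at least as large as that of gls was also seen in 25 eligible pairs that were not members, because at least 1 of their libraries lay between the limits.

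**Figure D1:**
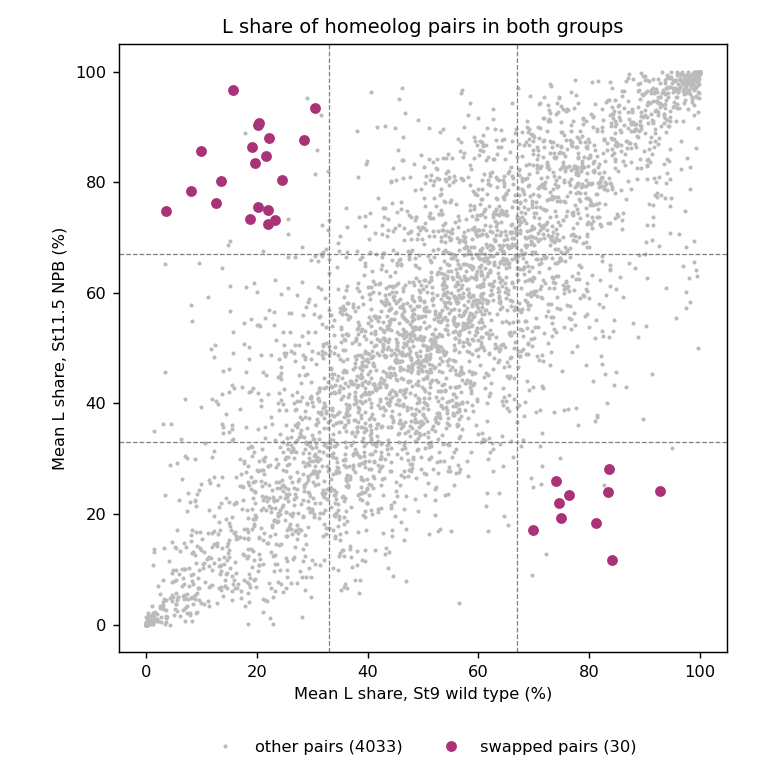
Mean L share of each of the 4063 eligible pairs in St9 wild-type libraries (x axis, %) and St11.5 NPB libraries (y axis, %), with 1 point for each pair and broken lines at the limits of 33% and 67%. The 30 swapped pairs (large points) lie in the upper left and lower right corners, away from the diagonal along which most of the other 4033 pairs lie, and small points in those corners are pairs in which the group mean but not every library passed a limit.

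The pairs at the edge of the rule show how it drew the line. Just inside, plekha4 had an L share of 32.8% in the first wild-type library, nucb2 67.4% in the third NPB library, and birc2 68.4% in the first wild-type library and 32.0% in the second NPB library. Just outside, gmps had 33.5%, 28.5% and 30.7% in wild-type and 89.9%, 81.3% and 86.6% in NPB libraries. The pair mtfr1l had 70.6%, 65.1% and 73.6% against 7.37%, 10.6% and 8.69%, and tmem30a 35.1%, 32.3% and 31.7% against 74.1%, 67.1% and 78.4%. The pairs gmps and tmem30a missed by the first wild-type library alone, and mtfr1l by the second alone.

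The 30 pairs are described below by what their proteins do. These headings of role were set with the values known and are only an order of presentation. L shares are given for replicates 1, 2 and 3, first in wild-type stage 9 and then in NPB libraries, and levels in CPM, which is corrected for library size but not for transcript length. Scaling bears on a comparison of levels between the groups, though not on a share. The median total of all eligible pairs, as a log2 ratio of NPB over wild-type explants, was -0.52 in unscaled CPM and 0.17 with totals scaled by TMM (the trimmed mean of M values of edgeR), and TMM ratios are given below where a direction turns on it.

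Among the members, 5 pairs encode proteins of genome maintenance, stress and cell survival. The pair etaa1, an activator of the checkpoint kinase ATR at stalled replication forks, had an L share of 93.4%, 95.3% and 89.6% and then of 22.5%, 24.8% and 25.3%. Its L copy stood at 61.6, 77.0 and 68.0 CPM at stage 9 and at 15.8, 17.6 and 15.0 CPM in NPB explants, while its S copy went from 4.34, 3.76 and 7.86 CPM to 54.2, 53.4 and 44.2 CPM. The total was 74.2 ± 7.54 CPM (mean ± SD, n = 3) and then 66.7 ± 6.49 CPM, slightly lower in unscaled CPM but higher on the TMM scale, with a log2 ratio of 0.55. The rnf8 pair encodes a ubiquitin ligase that marks chromatin at DNA double-strand breaks. It went from 73.2%, 68.2% and 68.1% to 9.52%, 19.2% and 22.5%, with rnf8.L at 118 ± 5.91 and then 6.41 ± 2.89 CPM, whereas rnf8.S stood at 51.4 ± 8.02 and then 30.3 ± 1.99 CPM.

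The cyclin ccng1 (cyclin G1, a transcriptional target of p53 in mammals) showed the opposite swap. Its L share was 15.4%, 8.38% and 6.01% at stage 9 and 84.2%, 86.5% and 86.5% in NPB explants. The S copy was at 22.2, 53.5 and 34.0 CPM and then at 17.6, 33.5 and 59.6 CPM, with overlapping groups (TMM log2 ratio 0.68). The larger difference was in ccng1.L, which went from 4.03, 4.90 and 2.17 CPM to 93.7, 215 and 382 CPM. The pair birc2, an inhibitor of apoptosis protein with ubiquitin ligase activity, had L shares of 68.4%, 77.6% and 83.0% and then 18.0%, 32.0% and 20.4%. Here too 1 copy did most of the moving: birc2.L stood at 33.7 ± 10.6 and 32.7 ± 6.46 CPM (TMM log2 ratio 0.67), while birc2.S went from 10.8 ± 4.96 to 116 ± 54.2 CPM. The kinase pair dyrk3, whose mammalian protein dissolves RNA-protein condensates, went from 21.0%, 20.6% and 18.8% to 77.7%, 73.4% and 75.3%, with dyrk3.L at 9.05 ± 0.76 and then 40.2 ± 12.7 CPM.

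Enzymes of metabolism made up 3 pairs. Glutaminase, gls, which converts glutamine to glutamate, had L shares of 75.0%, 69.4% and 77.6% and then 23.3%, 29.3% and 25.3%. Its total was 92.1 ± 31.0 CPM at stage 9 and 20.9 ± 4.60 CPM in NPB explants, with gls.L at 68.9 ± 26.6 and then 5.49 ± 1.65 CPM. In psph, the phosphatase of the last step of serine synthesis, the share went from 76.3%, 77.8% and 70.7% to 10.2%, 25.9% and 21.8%. There psph.S was higher, at 85.3, 44.1 and 53.1 CPM after 6.55, 6.39 and 12.7 CPM, and psph.L was at 13.3 ± 3.11 after 24.8 ± 5.29 CPM. The retinaldehyde reductase dhrs3, which lowers the supply of retinoic acid, was among the pairs with the greatest difference in total. Its L share was 13.2%, 30.3% and 13.9% and then 89.8%, 82.2% and 87.1%. The S copy was at 10.7, 10.4 and 7.35 CPM and then 8.57, 11.5 and 10.1 CPM (TMM log2 ratio 0.77), and dhrs3.L went from 1.63, 4.54 and 1.18 CPM to 75.7, 53.3 and 67.7 CPM.

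Signaling proteins formed a group of 6. The pair with the largest difference of all was socs1, an inhibitor of JAK-STAT signaling downstream of cytokine receptors. Its L share was 17.9%, 14.0% and 15.0% at stage 9 and 98.9%, 94.3% and 96.8% in NPB explants. The L copy was at 6.94, 1.49 and 1.37 CPM and then at 22.2, 19.3 and 15.4 CPM, and the S copy at 31.7, 9.16 and 7.76 CPM and then at 0.244, 1.17 and 0.512 CPM. The first wild-type library was high for both copies, with a share close to those of the other libraries, and the groups did not overlap for either copy. In sema4a, a transmembrane semaphorin that acts as a guidance and immune signal, the share went the other way, from 97.2%, 79.4% and 75.7% to 11.7% ± 3.84 in NPB libraries, with 15.1% as the highest value. The S copy went from 1.05, 6.07 and 3.16 CPM to 71.0, 35.9 and 47.1 CPM, and the L copy from 36.0, 23.4 and 9.84 CPM to 5.80, 6.41 and 6.67 CPM.

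The pair plekha4, whose mammalian protein binds membrane phosphoinositides and promotes Wnt signaling through Dishevelled, was among the most abundant members, at totals of 166 ± 37.0 and 83.4 ± 16.0 CPM. Its L share was 32.8%, 31.8% and 26.8% and then 94.3%, 92.8% and 93.2%. The difference lay mostly in plekha4.S, at 83.7, 134 and 128 CPM at stage 9 and 3.71, 6.54 and 6.45 CPM in NPB explants, beside plekha4.L at 50.2 ± 11.2 and 77.9 ± 14.4 CPM. For adcy9, an adenylyl cyclase that makes cyclic AMP, the share was 19.7%, 28.0% and 13.1% and then 96.1%, 83.6% and 91.2%. This was the pair with the lowest level, at a total of 11.2 ± 2.81 CPM at stage 9. The pair rgs3, which speeds GTP hydrolysis by G protein alpha subunits, went from 26.1%, 23.9% and 8.80% to 92.7%, 77.3% and 80.6%. The share of ppp3cc, a catalytic subunit of the calcium-dependent phosphatase calcineurin, went from 74.3%, 80.2% and 69.1% to 18.3%, 25.9% and 21.5%, with ppp3cc.L at 89.4 ± 14.4 and then 10.4 ± 1.21 CPM and ppp3cc.S at 30.3 ± 6.01 and then 37.4 ± 4.13 CPM.

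Proteins of the matrix, of cell contacts, of the actin skeleton and of membranes made up 9 pairs. The laminin beta 1 chain lamb1, a component of basement membranes, needs to be read library by library. At stage 9 lamb1.L had 4, 7 and 0 counts, and in NPB explants 9927, 4773 and 9668 counts. lamb1.S was at 1.32, 76.6 and 1.15 CPM in the wild-type libraries and at 2.13, 83.9 and 1.08 CPM in the morphant libraries, so it was high in replicate 2 of both stage 9 groups and near 1 or 2 CPM in the others. The pair reached the minimum of 10 CPM at stage 9 through that library alone, and it is not a member without it. Its L share was 10.5%, 0.323% and 0% at stage 9, the first of these from 4 of 38 counts (exact Clopper-Pearson 95% interval 2.94% to 24.8%) and the last from 0 of 36, which allows up to 9.74% at the upper end of the same interval. In NPB explants it was 70.4%, 71.3% and 82.7%, and lamb1.S, at 113, 64.2 and 41.4 CPM, was itself above its level in 2 of the 3 wild-type libraries.

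The desmosomal cadherin dsc3, which joins epithelial cells, had shares of 9.01%, 19.7% and 9.21% and then 74.6%, 75.0% and 79.3%, at a total of 43.7 ± 9.70 and then 28.7 ± 9.26 CPM (TMM log2 ratio 0.11). A further 3 pairs were elmo2, which works with Dock proteins in cell motility (18.0%, 31.7% and 16.2%, then 69.9%, 74.3% and 73.0%), fgd6, a guanine nucleotide exchange factor (23.5%, 26.8% and 14.6%, then 91.9%, 83.0% and 79.6%), and cdc42se2l (9.09%, 5.62% and 25.8%, then 78.2%, 85.2% and 77.1%). Their swaps were of different make. fgd6.L was at 21.4 ± 4.49 and 19.2 ± 0.40 CPM (TMM log2 ratio 0.54) beside fgd6.S at 79.9 ± 16.9 and then 3.51 ± 1.62 CPM, whereas in cdc42se2l the later dominant copy was higher and the other lower, at totals of 22.5 ± 3.02 and 20.2 ± 2.72 CPM (TMM log2 ratio 0.54).

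Another 4 pairs encode membrane or vesicle proteins, and all went from S to L. The sorting nexin snx22, which binds phosphoinositides on endosomes, had shares of 19.4%, 19.4% and 22.5% and then 92.9%, 90.5% and 88.8%. snx22.L was at 5.04, 4.40 and 4.19 CPM at stage 9 and at 61.2, 51.6 and 61.9 CPM in NPB explants, and snx22.S at 20.9, 18.3 and 14.4 CPM and then 4.66, 5.44 and 7.84 CPM. The tetraspanin tspan7 went from 8.12%, 7.79% and 8.17%, the most even shares of any member, to 92.3%, 74.1% and 68.8%, the most uneven in the NPB group. Shares of the transmembrane protein tmem45b were 28.9%, 27.8% and 28.7% and then 92.4%, 87.5% and 82.7%, with tmem45b.L at 26.0 ± 4.89 and then 126 ± 16.8 CPM. The calcium-binding nucleobindin nucb2 went from 25.8%, 19.5% and 20.4% to 80.7%, 76.6% and 67.4%.

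Regulators of transcription and of protein turnover made up 4 pairs. The Myb-related factor mypop (81.0%, 79.7% and 90.1%, then 28.7%, 28.4% and 27.6%) and zhx1, a zinc finger and homeobox repressor (87.3%, 87.2% and 75.7%, then 16.9%, 25.5% and 29.7%), went from L to S. The nuclear receptor coactivator ncoa6 (26.4%, 21.1% and 22.2%, then 73.8%, 72.7% and 73.2%) and btbd6, an adaptor of Cullin 3 ubiquitin ligases that is needed for neurogenesis in zebrafish (30.5%, 29.5% and 13.7%, then 87.4%, 78.9% and 75.0%), went from S to L. In zhx1 the total was 34.7 ± 8.30 and then 31.2 ± 4.75 CPM and in btbd6 26.7 ± 1.33 and then 25.4 ± 4.82 CPM. Both totals were slightly lower in unscaled CPM and higher on the TMM scale, with log2 ratios of 0.54 and 0.63. The 3 remaining pairs were c2cd2 (72.4%, 76.8% and 94.4%, then 20.8%, 21.8% and 12.6%), ccdc85c (18.7%, 23.6% and 24.2%, then 92.7%, 82.7% and 88.5%) and fam193a (17.6%, 20.2% and 18.4%, then 71.6%, 76.4% and 72.3%).

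**Figure D2:**
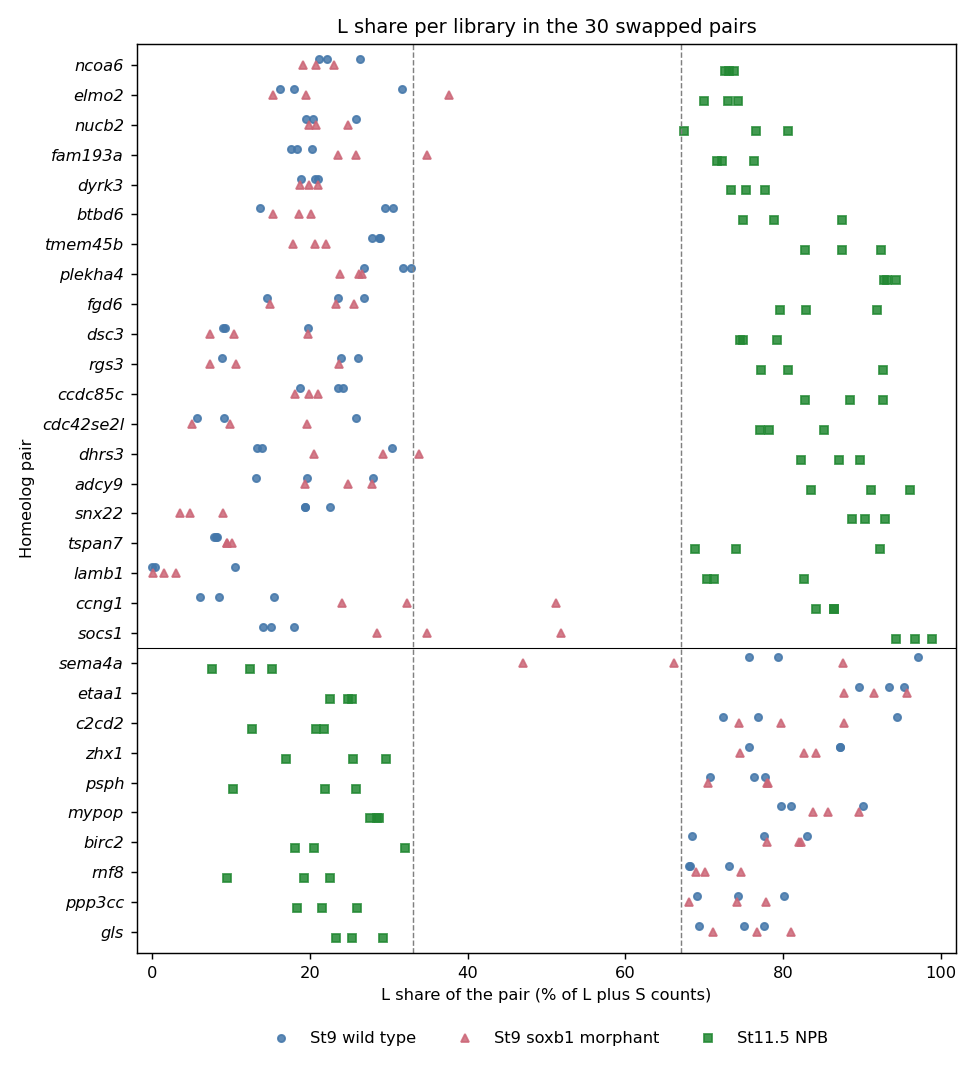
L share (x axis, % of L plus S counts) of each of the 30 swapped pairs (y axis) in every library, with St9 wild-type, St9 soxb1 morphant and St11.5 NPB libraries in different symbols. In all 30 pairs the wild-type and NPB points lie beyond opposite limits, and the morphant points of ccng1, socs1 and sema4a spread towards the middle.

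Shares of members varied somewhat more between replicates than those of other pairs. Their median SD was 5.21 percentage points in wild-type, 4.33 in morphant and 4.10 in NPB libraries, beside 3.32, 3.28 and 3.18 points over all eligible pairs. The largest were 11.6 points in wild-type libraries (c2cd2), 20.3 in morphant libraries (sema4a) and 12.3 in NPB libraries (tspan7). Members also had lower counts. The lower of the 2 group totals had a median of 26.5 CPM in the members, between 11.2 (adcy9) and 91.6 CPM (tmem45b), and of 48.3 CPM over all eligible pairs. The exact 95% binomial interval of a member's share in 1 library had a median full width of 4.52 points. Such a width spans several standard errors, so at the median counting error was below the median SDs. Intervals were wider in pairs with few counts, such as dhrs3, at 16.7 points in the third morphant library. The widest, 21.9 points, was that of lamb1 in the first wild-type library.

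A swap of shares can come about through a higher level of the later dominant copy, a lower level of the earlier dominant copy, or both. Levels were compared as the log2 ratio of group means, NPB over wild type, with library totals scaled by TMM. On this scale the later dominant copy had a median log2 ratio of 3.11 and was higher in NPB explants in 29 of 30 pairs, and the earlier dominant copy had a median of -1.39 and was lower in 25, while with unscaled CPM these counts were 27 and 27. The copies differed by at least 2-fold in opposite directions in 16 members. In all eligible pairs that was the case for 2.46%, or 100 pairs, and since the rule selects such pairs nothing is read from the difference. The 16 comprised etaa1, ppp3cc, sema4a, zhx1, adcy9, btbd6, ccdc85c, cdc42se2l, dsc3, ncoa6, nucb2, plekha4, rgs3, socs1, tmem45b and tspan7. Examples are socs1, at 3.24 for L and -4.00 for S, and tspan7, at 4.23 for L and -1.63 for S.

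In 11 pairs the later dominant copy was at least 2-fold higher and the earlier dominant copy was not 2-fold lower. Among them were ccng1.L at 6.61, dhrs3.L at 5.45, snx22.L at 4.38 and birc2.S at 4.15. For lamb1.L the counts given above stand in place of a ratio. The earlier dominant copy lamb1.S was also at least 2-fold higher, at 2.22, though its wild-type mean rested on replicate 2. In the last 3 pairs, gls, rnf8 and fgd6, only the earlier dominant copy was at least 2-fold lower, with gls.L at -2.98, rnf8.L at -3.55 and fgd6.S at -3.85, and the other copy at 0.09, -0.07 and 0.54. These counts depended on the scaling. With unscaled CPM the 3 kinds held 16, 8 and 6 pairs, since c2cd2, dyrk3 and snx22 gained a 2-fold lower copy and ppp3cc, ncoa6 and plekha4 lost a 2-fold higher one. The total of L and S was at least 2-fold higher in 13 members on the TMM scale and 9 on the CPM scale, beside 21.9% and 9.45% of eligible pairs, and at least 2-fold lower in 3 and 4, beside 14.8% and 33.1%.

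**Figure D3:**
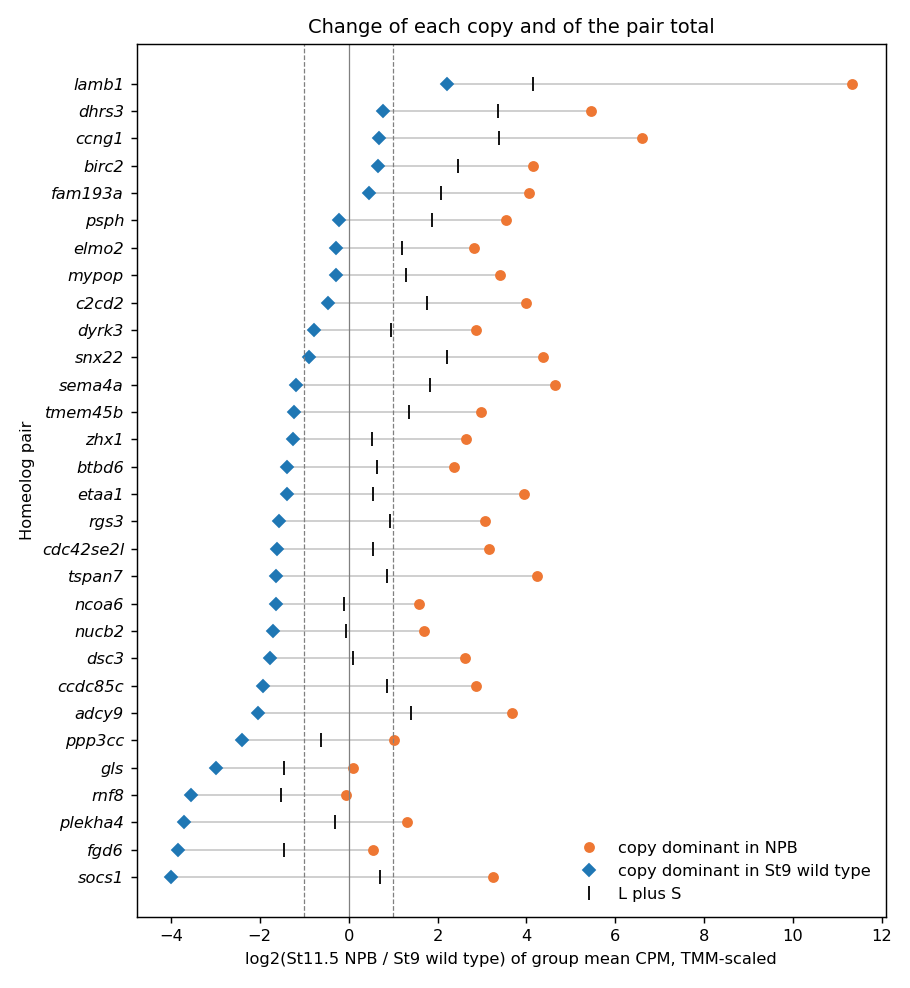
Log2 ratio of group mean CPM, TMM-scaled, of St11.5 NPB over St9 wild-type libraries (x axis) for the 2 copies of each swapped pair (y axis), with the copy dominant in NPB explants as circles and the copy dominant at stage 9 as diamonds. In gls, rnf8 and fgd6 the circle lies near 0 and the diamond far below it, in ccng1, dhrs3 and birc2 the diamond lies slightly above 0, and the circle of lamb1 rests on 11 counts in 3 wild-type libraries.

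Counts are not corrected for length, and copies can differ in the length of their annotated transcripts. For the NPB libraries the deposited TPM values (transcript abundance scaled to the library and corrected for length) gave a length-corrected reading. They come from the same libraries that chose the members, so they are not a replicate of the swap. They were made with a different tool (RSEM) from the counts (HTSeq), so a difference between them can hold read assignment as well as length. By TPM all 30 pairs kept the dominant copy that the counts had shown, and 25 were beyond the limit in every NPB library. The exceptions were ppp3cc (27.6%, 36.3% and 26.8% L), rnf8 (27.9%, 41.0% and 39.0%), dsc3 (61.5%, 59.3% and 68.0%), dyrk3 (64.8%, 63.9% and 64.2%) and lamb1 (58.1%, 56.2% and 70.5%). The TPM and count shares differed by a median of 2.71 points in size in the members and 3.91 points over eligible pairs, and by at most 18.9 points. On this scale, which allows genes to be compared, the highest copies among the members in NPB explants were ccng1.L at 157 ± 98.4 TPM, tmem45b.L at 90.7 ± 10.6, snx22.L at 89.5 ± 9.49 and dhrs3.L at 72.8 ± 14.0 TPM. The lowest dominant copies were fgd6.L at 6.18 ± 0.14 and cdc42se2l.L at 5.95 ± 1.18 TPM.

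For stage 9 no TPM values were used, so each copy's ratio of counts to TPM in the NPB libraries served as a stand-in for its length. This ratio also takes in any difference in read assignment between the tools. The L-to-S ratio of this stand-in lay between 0.367 (rnf8) and 3.18 (adcy9). With every share corrected in this way, all 30 pairs still had their dominant copies on opposite sides of 50% in the 2 groups. Beyond the limits in all libraries were 17 members. The 13 that were not were adcy9, btbd6, dsc3, dyrk3, elmo2, gls, lamb1, nucb2, ppp3cc, rgs3, rnf8, snx22 and tspan7. Reads were also assigned between near-identical copies by the alignment, and how reads that matched both copies were counted is not given in the sources used here, so part of a count may belong to the other copy.

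The soxb1 morphant libraries were not used by the rule, but they are not independent of the wild-type libraries that were. Over all pairs, deviations of the log2 L to S ratio from the group mean correlated at 0.805, 0.83 and 0.825 between libraries of the same replicate number. In 24 of 30 pairs (80%) the L share was on the stage 9 side of the same limit in all 3 morphant libraries. Of all 1710 eligible pairs beyond a limit in wild-type explants, 92.7% did so. The mean share differed between morphant and wild-type libraries by less than 10 points in 26 members, with a median of 2.40 points in size, beside 1.42 points over eligible pairs and 0.961 points over the 1710. It differed in the direction of the NPB value in 12 members and away from it in 18. In etaa1, for example, the morphant shares were 91.5%, 95.7% and 87.7%, in dyrk3 19.8%, 18.7% and 21.0%, and in tspan7 9.43%, 10.1% and 9.46%.

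The 6 pairs that were not beyond the limit in every morphant library were ccng1, socs1, sema4a, fam193a, dhrs3 and elmo2. In ccng1 the share was 51.2%, 32.3% and 24.1%, each above its wild-type value of the same number, and ccng1.L stood at 36.5, 29.5 and 12.3 CPM, above all 3 wild-type values. In socs1 it was 51.9%, 28.4% and 34.8%. For sema4a, the shares of 87.6%, 66.2% and 47.1% were each below the wild-type value of the same number, with sema4a.S at 5.25, 13.5 and 13.0 CPM, so that in replicate 3 the copies were nearly equal. The fam193a pair had 23.5%, 25.8% and 34.9% and dhrs3 20.5%, 29.3% and 33.8%, at a total of only 5.54 ± 1.38 CPM. The sixth pair, elmo2, had 15.3%, 37.6% and 19.5%, with the same high second library in wild-type explants (31.7%). Markers differed between these groups as well: the NPB list was at 165 to 220 CPM in morphant libraries and the mesoderm and endoderm list at 288 to 365 CPM. The neural crest list was at 500 to 626 CPM there, beside 386 to 470 CPM in wild-type libraries. The part of these markers in the shares was not tested.

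**Figure D4:**
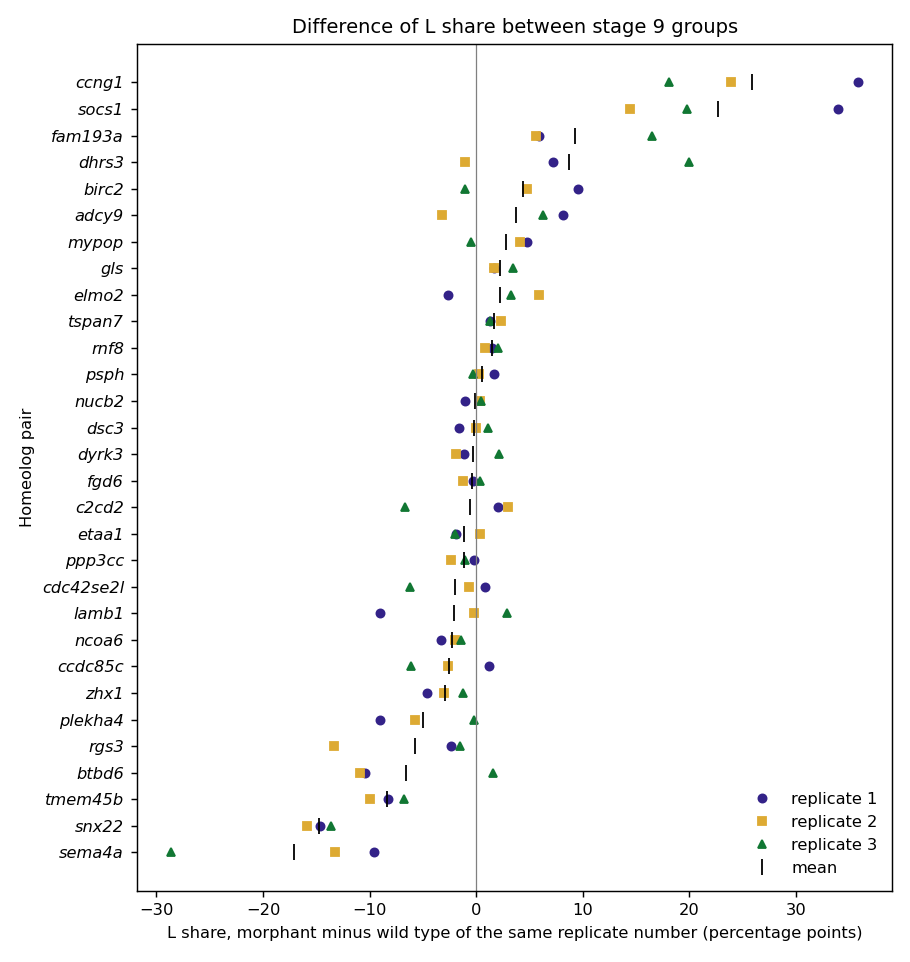
Difference in L share between the morphant and the wild-type library of the same replicate number (x axis, percentage points) for each swapped pair (y axis), with 1 symbol for each replicate number and a tick at the mean. The points of 14 pairs lie on the same side of 0 in all 3 replicates. Among these are ccng1 and socs1 to the right and snx22, sema4a and tmem45b to the left. For 26 pairs, tmem45b included, the mean lies within 10 points of 0.

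Each homeolog was then tested between morphant and wild-type explants in a fit over all genes. The wild-type libraries of this contrast also served to choose the members. In edgeR's quasi-likelihood F test with no block, 0 of 59 tested member homeologs passed an adjusted p of 0.05 (lamb1.L was too low to test), beside 0 of all 21659 genes (0%). The lowest adjusted p by edgeR was 0.192, for ccng1.L and snx22.L. DESeq2 without a block called 3, namely ccng1.L (higher, as were 0.829% of all genes) and snx22.L and dhrs3.S (lower, as were 1.2%), beside 2.02% of all genes in both directions. The replicate numbers paired the stage 9 libraries, and with the number as a block in edgeR 14 of 59 homeologs were called (23.7%), beside 12.5% of all genes, with 7 higher (all genes 5.75%) and 7 lower (6.71%). DESeq2 with the block called 13 of these 14, all but socs1.L, beside 9.54% of all genes (4.16% higher and 5.38% lower). All genes had only to pass edgeR's expression filter, not the members' minimum of 10 CPM, so members and all genes were not matched in level.

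In the blocked edgeR fit, ccng1.L rose by 2.77 on the log2 scale (SE 0.14, adjusted p = 2.36e-08) and sema4a.S by 1.73 (SE 0.20, adjusted p = 0.000224). Each is the copy that was dominant in NPB explants. By the same fit snx22.L, which is also dominant there, fell by 2.14 (SE 0.24, adjusted p = 2.46e-05), from 5.04, 4.40 and 4.19 CPM to 0.952, 0.726 and 1.45 CPM, with no overlap, while snx22.S was at 17.9 CPM in both groups. In the blocked edgeR fit dhrs3.S, the copy dominant at stage 9, fell by 1.25 (SE 0.15, adjusted p = 5.04e-05). The other calls that it made were smaller. socs1.L, fgd6.L, fgd6.S, ccng1.S and gls.L rose by between 0.28 and 0.60, and socs1.S, btbd6.L, tmem45b.L, ncoa6.L and plekha4.L fell, with log2 fold changes between -1.16 and -0.36. Of the 14, the calls of ccng1.S, socs1.L, socs1.S, fgd6.L, gls.L, plekha4.L, btbd6.L and ncoa6.L were each lost when at least 1 replicate number was left out. Of the 14, 9 were kept without replicate 1, 9 without replicate 2 and 11 without replicate 3. In these fits 6.72%, 8.11% and 11.7% of all genes were called.

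The ratio of L to S was tested directly, with both copies of a library in the same fit, so that depth and the total of the pair cancel. The wild-type L shares in this contrast also served to choose the members, at extreme values. A move of a member's ratio back towards the middle in morphants cannot be told apart from that choice. Without a block edgeR called 0 of 29 tested pairs and 0 of 4921 in all (0%), and the lowest adjusted p of a member was 0.383, for snx22. limma on log2 ratios called 0 of the members and 0 of all 4921 pairs (0%), with or without the block. The pair dhrs3 was below the minimum of 10 CPM in morphant libraries and was not tested. With the replicate number as a block edgeR called 6 of 29 (20.7%), beside 15% of all pairs, with 3 ratios higher (all pairs 7.17%) and 3 lower (7.84%). The lowest adjusted p of a member by limma with the block was 0.0529, for ccng1. Over all pairs the blocked fits thus differed, with 15% called by edgeR and 0% by limma.

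Among the ratios called by the blocked edgeR fit, those of ccng1 (2.41, SE 0.12, adjusted p = 2.23e-08), socs1 (1.87, SE 0.22, adjusted p = 6.15e-05) and fam193a (0.76, SE 0.20, adjusted p = 0.0167) moved towards L, the copy dominant in NPB explants. The edgeR ratio of sema4a (-1.55, SE 0.22, adjusted p = 0.00105) moved towards S, which is also its NPB copy. Without a block the sema4a ratio was -1.57, and its size rested on single libraries, at -0.61 without wild-type replicate 1, -2.35 without morphant replicate 1 and -0.86 without morphant replicate 3. Those of snx22 (-2.14, SE 0.22, adjusted p = 2.26e-05) and tmem45b (-0.67, SE 0.09, adjusted p = 0.000223) moved towards S, the copy already dominant at stage 9. The morphant shares of snx22 were 4.73%, 3.53% and 8.91%, all below its wild-type shares, and those of tmem45b 20.6%, 17.8% and 22.0%, also without overlap. All 6 differed in the same direction in 3 of 3 replicate numbers. The call of fam193a was lost without replicate 3 (edgeR adjusted p = 0.164), and socs1 fell below the minimum without replicate 1 and was then not tested.

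**Figure D5:**
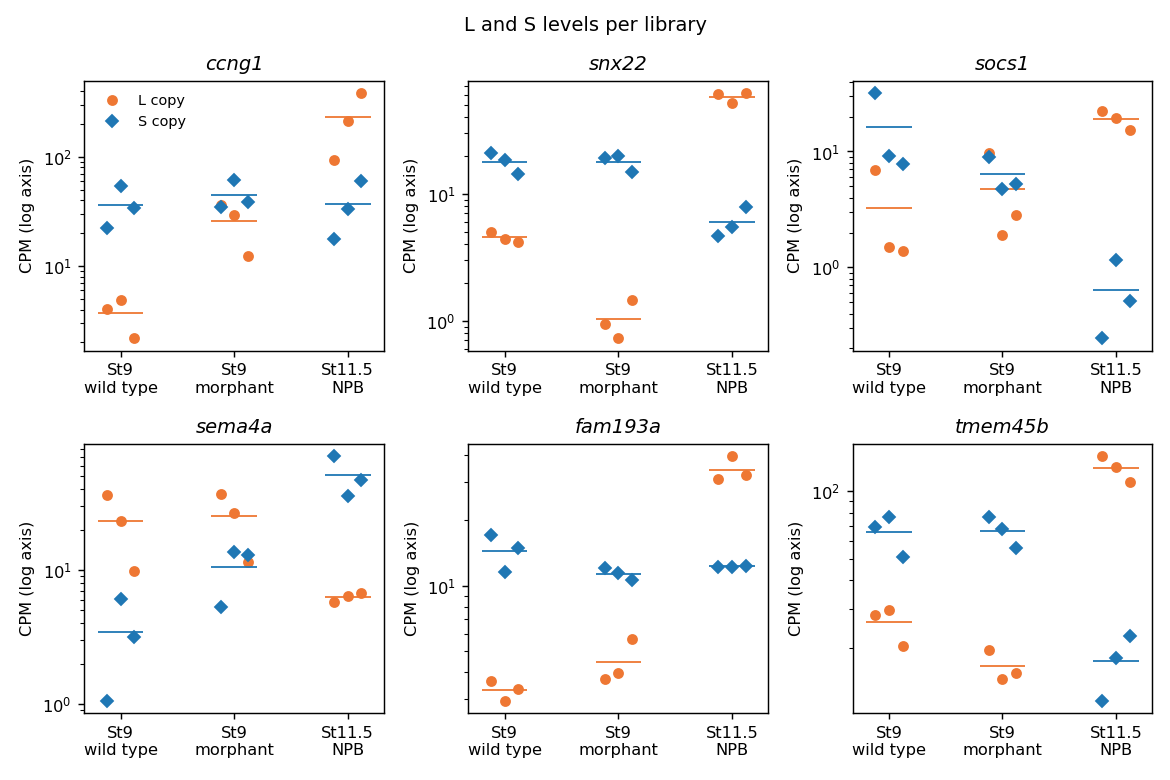
Level in CPM (y axis, log scale) of the L copy (circles) and the S copy (diamonds) in each library of the 3 groups (x axis) for the 6 pairs whose L to S ratio was called with the replicate block, with lines at the group means. In ccng1 the L copy lies higher in morphant than in wild-type libraries with S slightly higher, in snx22 and tmem45b the L copy lies lower, and in sema4a the S copy is higher in morphants at a similar level of L.

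Marker genes of the explants were not among the swapped pairs. No pair of the NPB (5 eligible), neural crest (4), pluripotency (7), epidermis (5) or neural (4) lists swapped, and the placode, mesoderm and endoderm, multiciliated and injected lists had 0 eligible pairs. The largest differences in share among these lists were those of dlx5, an NPB homeobox gene, whose mean L share went from 8.08% to 57.8%, and sox9, a neural crest regulator, from 11.2% to 59.3%. These left S dominance without reaching L dominance. The pluripotency gene lin28a, which encodes an RNA-binding protein, went from 35.0% to 70.2%, above the upper limit in the NPB mean and just short of the lower limit at stage 9. Of 26 eligible cell cycle pairs 1 swapped, ccng1. None of 56 cytosolic ribosomal protein pairs swapped, and their median difference in L share was 5.60 points in size, with 6 pairs dominated by the same copy in both groups. The share of swapped pairs among all eligible ones was 0.738%, and nothing is read from these small counts.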

How the data were processed

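RNA-seq libraries were made by the authors from total RNA of animal pole explants with a directional kit. Per the methods of the study, reads were trimmed with fastp, aligned to the Xenopus laevis genome (version 9.2) with STAR and counted per gene with HTSeq, and the deposited counts are raw whole numbers. TPM values, made with RSEM, were deposited by the authors for NPB libraries. Versions of the tools, the release of the annotation, the strand setting and the treatment of reads that match several genes are not given in the sources used here. A deposited table with the authors' fold changes and p-values was not used. The stage 9 and NPB counts came in separate tables with the same 51061 gene names in the same order. The study describes more than 1 way to induce neural plate border explants, and the treatment is given here as labelled.

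The members and gene lists were chosen with earlier results of these data known. CPM was the count over the library total. Totals were 25796466 to 48839143 counts, and a floor of 3 counts was 0.0614 to 0.116 CPM. Intervals are exact (Clopper-Pearson, 95%) and cover counting error only, not the spread between replicates. The methods of the study name no step that removes PCR copies, and such copies would make the intervals too narrow. Between replicates of a group the chi-square statistic per gene was 41.2 to 99.8.

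Morphant and wild-type libraries were compared by the two-sided quasi-likelihood F test of edgeR 4.0.16 in R 4.3.3 (robust, filterByExpr, TMM), with Benjamini-Hochberg adjustment over all genes or pairs tested. For the L to S ratio, L and S counts entered as 2 columns a library, with terms for library, copy and copy by group, over all pairs with at least 10 CPM in both stage 9 groups. The SE, which is approximate, was obtained by dividing the size of the log2 fold change by the root of F. DESeq2 1.42.0 and limma 3.58.1 (log2 of L over S, 0.5 added to each) were alternatives. The scripts were tested on simulated data. Deviations from the group mean correlated at 0.868, 0.855 and 0.855 for stage 9 libraries of both groups with the same number (log2 CPM, across genes) and at -0.48 to -0.378 between different numbers. For log2 L to S ratios these were 0.805, 0.83 and 0.825 for the same number and -0.471 to -0.364 for different numbers. Deviations cancel within a group, so the negative values follow from the positive ones and add nothing to them. The labels give the numbers but not what they mark, and the numbers were taken to pair the stage 9 libraries from the correlations of the same number.

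All members were counted. Values per library were given for the 10 largest differences in share in each direction, the 10 most abundant pairs, pairs outside the limits in morphants, pairs with a call and members of the lists, and shares for the remaining pairs as well. Gene names were looked up in the RefSeq gene table of assembly version 10.1, which held 59 of the 60 member homeologs (all but dyrk3.S), all 59 as protein coding. No coordinates are given, because that assembly is not the one the counts were made on.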

Additional observations from a re-analysis of the deposited data

How the results depend on the processing

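The number of swapped pairs followed the limits set on the L share. It was 65 with limits of 60% and 40%, 5 with 75% and 25% (ccdc85c, ccng1, sema4a, snx22 and socs1), and 58 when the group mean rather than every library had to pass. It was 39 and 22 with minimums of 5 and 20 CPM, 30 with TMM-scaled CPM (28 the same, without adcy9 and dhrs3), 42 with NPB shares from TPM (25 the same), 25 with length-corrected shares (17 the same) and 27 with morphant libraries as the stage 9 group (24 the same). Leaving out 1 library gave between 32 and 36 pairs, with 29 or 30 of the members among them. socs1 was lost without wild-type replicate 1, lamb1 without replicate 2 and adcy9 without replicate 3. Of the members, 24 kept their stage 9 side in morphants, 27 with limits of 60% and 40%, and between 25 and 26 without 1 morphant library.

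With the replicate block, edgeR called 14 homeologs and 6 L to S ratios between morphant and wild-type explants, beside 12.5% of all genes and 15% of all pairs. Without it edgeR called 0 of either kind (0% of all). DESeq2 called 3 homeologs without and 13 with the block, beside 2.02% and 9.54% of all genes. With the block and replicate 1, 2 or 3 left out, edgeR called 10, 10 and 12 homeologs, beside 6.72%, 8.11% and 11.7% of all genes. Of these calls, 9, 9 and 11 were among the 14, with 1 new call each. The ratios called were 6, 6 and 8, beside 8.97%, 9.31% and 12.1% of all pairs. Without the block, each other alternative called 0 members of either kind, beside at most 0.0429% of all genes and 0.0204% of all pairs. The log2 fold change of gls.L was 0.30 without a block and ranged from -0.11 (without morphant replicate 3) to 0.65 (without wild-type replicate 3), and that of socs1.L was 0.55 and ranged from -0.50 (without morphant replicate 1) to 1.77 (without wild-type replicate 1), so that both reversed. The cause was not tested. The other planned values for single copies and pairs kept their direction, though leaving out 1 library moved the size of several by over 1.5 times: without a block, socs1.S went from -1.36 to -0.40 without wild-type replicate 1, ncoa6.L from -0.63 to -0.27 without wild-type replicate 3, plekha4.L from -0.33 to -0.12 without morphant replicate 1, fgd6.L from 0.41 to 0.26 without wild-type replicate 3 and ccng1.S from 0.30 to 0.02 without morphant replicate 2.

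The 3 libraries a group, pairs down to 34 counts a library and shares near the limits set the precision. The swap from stage 9 to NPB has no replicate set outside the libraries that chose the members. The TPM values come from the same NPB libraries and are not such a set.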
